A study of Mus musculus with 12 samples.

Results

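The 8 genes described here encode proteins that red blood cells and their precursors use: the transcription factors Gata1 and Klf1, the erythropoietin receptor Epor, the heme synthesis enzyme Alas2, and the membrane proteins Slc4a1, Rhag, Kel and Ermap. They were taken by symbol from a table of 52459 genes, all 8 symbols were found there, and all 8 passed the filter on low values (at least 1 TPM in at least 3 of 12 libraries). TPM is a length-adjusted transcript abundance that sums to the same total in every library. The study profiled choroid plexus, the vascular and epithelial tissue in the brain ventricles that makes cerebrospinal fluid, by RNA sequencing. Mice were of the B6 strain, with no allele or treatment named in the labels used here. The 4 ages were an embryonic stage (E12.5), the day of birth (P0), postnatal day 14 (P14) and 6 months (A6m), with 3 libraries each. The design text speaks of independent specimens. Sex, the ventricle sampled, any pooling of animals and any perfusion to remove blood were not stated, and whole dissected tissue went into the RNA reagent.

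Red blood cells arise from progenitors that come under the control of Gata1, a zinc-finger factor that binds GATA sequences, and Klf1, which binds CACC sequences. Erythropoietin, acting through Epor and the kinase Jak2, keeps the progenitors alive while they divide. Alas2 makes the first committed intermediate of heme in erythroid mitochondria, and its relative Alas1 does so in other tissues. In the embryo the first red cells are primitive cells from the yolk sac, which circulate with their nuclei and make embryonic globins, and enucleated definitive cells with adult globins follow from the fetal liver. Mature red cells of the adult hold little RNA.

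The bases upstream of the start site are shown because the members fell together and 2 of them encode factors with known recognition sequences. Promoters of 7 of the 8 genes were found in RefSeq (GRCm38.p6); Slc4a1 was not matched. The window began 250 bases before the RefSeq start and stopped where an annotated GENCODE M21 exon began. Capitals mark GATA matches (AGATAA with its variant AGATAG, and TGATAA with its variant TGATAG; in a match on the opposite strand AGATAA reads TTATCT and TGATAA reads TTATCA) and CACC matches (CCNCNCCC on either strand). Sequences read 5′ to 3′ on the strand of the gene. The windows are chrX:7967911-7968160 on the minus strand for Gata1, chr8:84901732-84901927 on the plus strand for Klf1, chr9:21963577-21963826 on the minus strand for Epor, chrX:150547167-150547374 on the plus strand for Alas2 and chr6:41704340-41704575 on the minus strand for Kel.
Gata1: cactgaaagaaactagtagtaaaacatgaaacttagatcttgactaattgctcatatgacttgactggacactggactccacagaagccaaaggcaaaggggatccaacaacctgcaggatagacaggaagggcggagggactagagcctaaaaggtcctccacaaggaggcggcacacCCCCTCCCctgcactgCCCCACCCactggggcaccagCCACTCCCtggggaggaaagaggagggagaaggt
Klf1: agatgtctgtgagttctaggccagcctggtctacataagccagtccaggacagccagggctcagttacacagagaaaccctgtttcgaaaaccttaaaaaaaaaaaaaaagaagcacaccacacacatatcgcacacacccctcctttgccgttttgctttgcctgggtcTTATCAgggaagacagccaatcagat
Epor: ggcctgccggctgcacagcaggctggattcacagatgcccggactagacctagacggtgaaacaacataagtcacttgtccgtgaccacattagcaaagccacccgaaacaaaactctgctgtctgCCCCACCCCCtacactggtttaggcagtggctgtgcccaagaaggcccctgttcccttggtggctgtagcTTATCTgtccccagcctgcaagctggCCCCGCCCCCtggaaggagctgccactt
Alas2: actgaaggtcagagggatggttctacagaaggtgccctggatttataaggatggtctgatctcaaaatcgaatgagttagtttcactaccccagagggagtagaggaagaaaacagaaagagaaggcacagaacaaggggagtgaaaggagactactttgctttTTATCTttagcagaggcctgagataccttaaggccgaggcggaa
Kel: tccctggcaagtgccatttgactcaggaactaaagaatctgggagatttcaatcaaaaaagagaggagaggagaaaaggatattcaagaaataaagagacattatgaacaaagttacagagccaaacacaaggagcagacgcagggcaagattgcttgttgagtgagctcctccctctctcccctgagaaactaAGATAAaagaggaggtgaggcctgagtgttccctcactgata

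Within the 250 bases, 6 of the 7 promoters held a GATA match, which 27.1% of 27025 RefSeq promoters of the same length also held. The exception was Gata1 itself. Counted from the start site, the first base of the match lay at -56 in Kel, -86 in Alas2, -80 in Klf1, -54 in Epor, -31 in Rhag and -67 in Ermap, so all 6 lay within 86 bases of the RefSeq start. A CACC match was present in 3 of 7 promoters over the full 250 bases, against 45.55% of all promoters. In the windows shown it occurred 3 times in Gata1 and 4 times in Epor, where the 4 matches form 2 overlapping pairs. Bases that follow the RefSeq start were found in a GENCODE transcript of the same gene for each of these promoters but that of Epor. None of the 7 RefSeq starts was the outer start of its GENCODE gene, and that of Gata1 (X:7967910) lay inside the gene (X:7959260-7978071). Starts of single transcripts were not compared, and the positions given here depend on the start used. A match is a run of letters and no evidence of binding, and the absence of one says only that these letters are not in the window.

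**Figure D1:**
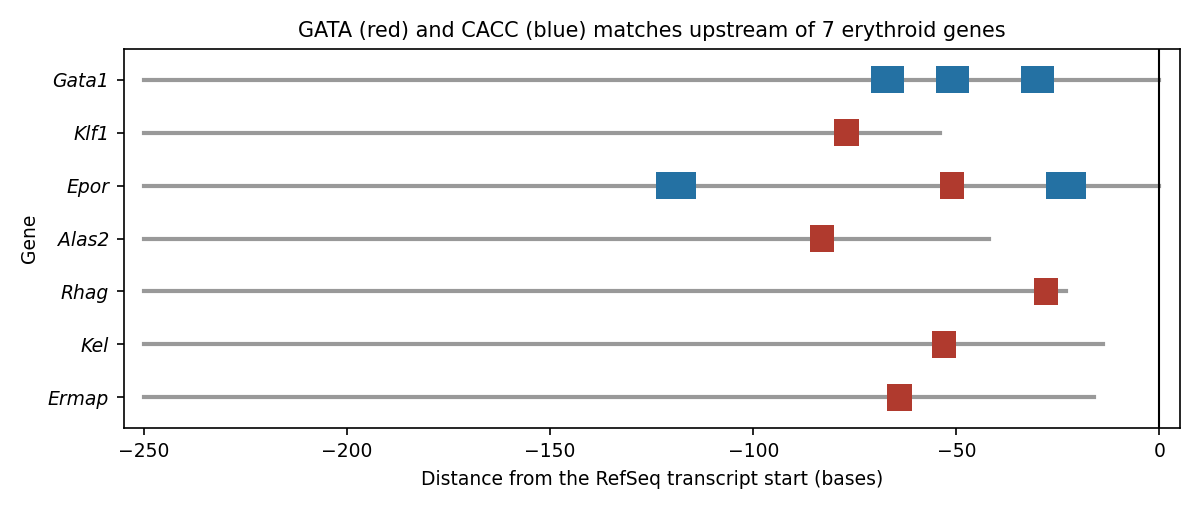
Position of motif matches upstream of 7 members; the x axis is the distance in bases from the RefSeq start, grey lines span the bases searched outside annotated exons, red blocks are GATA matches and blue blocks are CACC matches. Of these 7 genes, 6 have a red block, all between positions -86 and -26, and Gata1 has 3 blue blocks and no red one.

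At E12.5 each of the 8 transcripts was well above its later level, and at P0 all 8 had fallen. The drop in mean TPM ranged from 4.49-fold for Alas2 to 342-fold for Kel, and in 8 of 8 members every P0 library was below every E12.5 library, as it was for 43.5% of all tested genes. All 8 of 8 were called lower by limma (Benjamini-Hochberg adjusted p under 0.05 over 17422 tested genes, on log2(TPM + 1)), where 43.7% of all tested genes were called lower. The median log2 difference was -2.85 over the 8 members and -0.27 over all tested genes. With the libraries rescaled by median-of-ratios size factors, which set the median of all genes to -0.02, the median of the members was -2.46 and 8 of 8 were again called lower, with 31% of all genes. Of the 8, Kel, Klf1, Gata1, Rhag and Ermap reached 1 TPM only in E12.5 libraries and so passed the filter through that age alone. They therefore had to differ from E12.5, and the count of 8 is a description of the chosen genes. In whole tissue, fewer erythroid cells and less RNA per erythroid cell cannot be told apart.

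**Figure D2:**
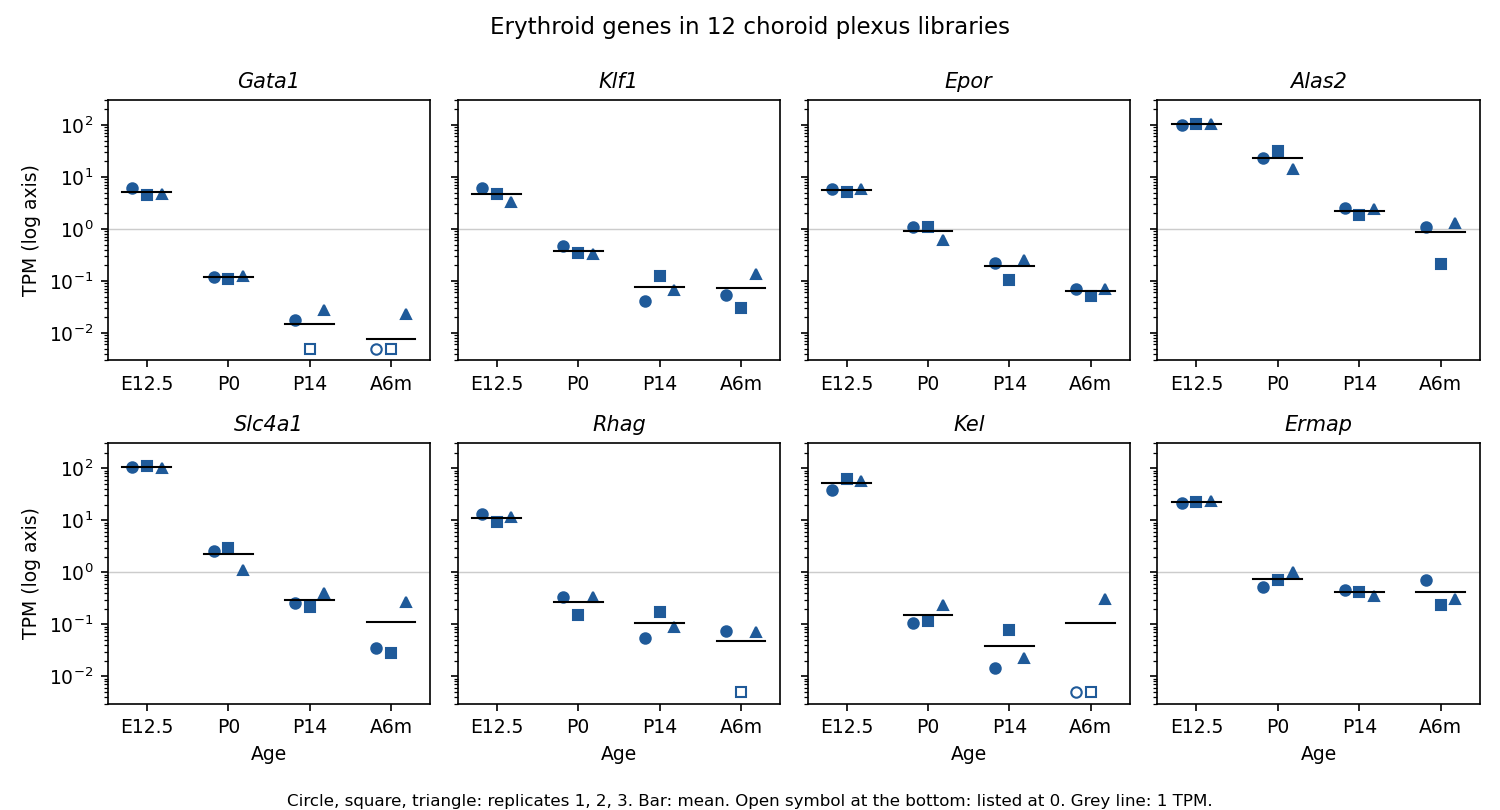
TPM of each member in the 12 libraries on a log axis, by age; circles, squares and triangles are replicates 1, 2 and 3, bars are means, and open symbols at the bottom are libraries listed at 0. All 8 panels step down from E12.5 to P0, 7 of them, all but Rhag, step down again at P14 without overlap, and the mean of Ermap is near 0.4 TPM at both P14 and A6m.

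Among the regulators, Gata1 (X:7959260-7978071, minus strand, coordinates here and below from GENCODE M21 on GRCm38) measured 6.14, 4.56 and 4.70 TPM in the 3 E12.5 libraries and 0.119, 0.108 and 0.123 TPM at P0. The P0 libraries were close together and all far below E12.5. The fold between means was 44.0, and the limma log2 difference was -2.45 (SE 0.12, adjusted p = 5.16e-08). At P14 Gata1 was at 0.0174, 0 and 0.0273 TPM, and at A6m it was listed at 0 in 2 libraries and at 0.0228 TPM in the third. These later levels are under 1 TPM in every library, and the log2(TPM + 1) scale compresses differences there.

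Klf1 (8:84901928-84905291, plus strand), which activates adult beta-globin and many red cell membrane genes, stood at 6.18, 4.65 and 3.23 TPM at E12.5 and at 0.470, 0.349 and 0.330 TPM at P0. The E12.5 libraries spread widely, yet the lowest was above all P0 libraries. The fall was 12.2-fold between means (log2 difference -2.01, SE 0.17, limma adjusted p = 2.41e-06). By P14 the values were 0.0421, 0.124 and 0.0659 TPM, and at A6m 0.0548, 0.0300 and 0.138 TPM, so the libraries of the last 2 ages overlapped.

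Epor (9:21958897-21963506, minus strand) gave 5.78, 5.22 and 5.89 TPM at E12.5, the narrowest relative spread of the 3 low-abundance members. Its P0 libraries were at 1.07, 1.10 and 0.623 TPM. The drop of 6.04-fold (log2 difference -1.79, SE 0.13, limma adjusted p = 6.43e-07) was smaller than that of Gata1 or Klf1. Epor kept falling at P14, to 0.223, 0.106 and 0.247 TPM (4.85-fold; log2 difference -0.69, adjusted p = 0.00103), with no overlap between the ages. The A6m libraries were at 0.0694, 0.0507 and 0.0698 TPM, all below P14, but the log2 difference of -0.16 did not pass (adjusted p = 0.436).

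Alas2 (X:150547375-150570638, plus strand), whose loss in humans gives X-linked sideroblastic anaemia, was among the 2 most abundant members at E12.5, at 100.3, 106 and 104 TPM. At P0 it measured 23.5, 31.0 and 14.5 TPM. This was the smallest fold among the 8, 4.49 between means (log2 difference -2.18, SE 0.27, limma adjusted p = 3.67e-05), and it left Alas2 about an order of magnitude above the next member. The larger step came at P14, to 2.47, 1.85 and 2.45 TPM, a 10.2-fold drop (log2 difference -2.83, SE 0.27, adjusted p = 1.66e-05). At A6m the libraries were at 1.07, 0.209 and 1.29 TPM, all below P14 (log2 difference -0.86, adjusted p = 0.0448). That last call was lost in 14 of 20 alternative settings, over which the adjusted p ran from 0.0212 to 0.273.

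The gene overlaps Apex2 and Mir3620, annotated on the other strand, and whether counting used strand is not given in the sources used here. Apex2, a DNA repair endonuclease, ranged from 7.87 to 11.2 TPM at E12.5 and from 3.55 to 5.09 TPM at P0. It lay between 2.29 and 2.33 TPM at P14 and between 2.18 and 3.09 TPM in A6m libraries. Alas2 and Gata1 are X-linked, and Xist, made from the inactive X of females, spanned 148 to 155 TPM at A6m and did not exceed 0.808 TPM at P0 or P14. The E12.5 libraries gave 139, 0.389 and 89.5 TPM of Xist. Ddx3y, a gene of the Y chromosome, was at 9.26, 54.4 and 50.9 TPM in the same libraries. Its level was 108 to 117 TPM at P0 and 80.1 to 93.2 TPM at P14. At A6m it did not exceed 0.366 TPM. Replicates 1 and 3 of E12.5 thus held both transcripts, and the cause was not tested. Sex and age therefore cannot be told apart in the comparison of A6m with P14, for these 2 genes or for any other. The comparisons with E12.5 also differ in these sex-linked transcripts. Within E12.5, across libraries that differed in Xist, the CV was 2.86% for Alas2 and 17.1% for Gata1. Whether sex moved either gene was not tested.

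Slc4a1 (11:102348824-102366203, minus strand), the anion exchanger band 3 and the most abundant integral protein of the red cell membrane, measured 104, 109 and 100.1 TPM at E12.5 and 2.55, 2.97 and 1.10 TPM at P0. From a level overlapping that of Alas2, it fell 47.2-fold (log2 difference -5.09, SE 0.20, limma adjusted p = 1.29e-08). At P14 it was at 0.258, 0.215 and 0.408 TPM, a further 7.51-fold drop (log2 difference -1.26, adjusted p = 0.000437). At A6m the libraries were at 0.0348, 0.0285 and 0.263 TPM, and replicate 3 overlapped P14.

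Rhag (17:40811126-40840754, plus strand), the Rh-associated glycoprotein that carries the Rh complex to the membrane, was at 13.0, 9.09 and 11.4 TPM at E12.5 and at 0.342, 0.152 and 0.330 TPM at P0. The libraries did not overlap, and the fall was 40.6-fold (log2 difference -3.24, SE 0.14, limma adjusted p = 1.97e-08). The P14 values of 0.0555, 0.169 and 0.0885 TPM overlapped P0. At A6m Rhag was at 0.0732 and 0.0724 TPM in replicates 1 and 3 and was listed at 0 in replicate 2.

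Kel (6:41686330-41704339, minus strand, overlapped on the same strand by the gene model Gm37527), a metalloprotease that carries the Kell blood group, had the steepest drop. It measured 38.3, 62.3 and 56.9 TPM at E12.5 and 0.105, 0.117 and 0.238 TPM at P0. On the log2(TPM + 1) scale the difference was -5.51 (SE 0.18, limma adjusted p = 3.98e-09), the sixth in size among the falls of all 17422 tested genes, and 0.0574% of those genes fell by more than 5. At P14 the values were 0.0143, 0.0781 and 0.0224 TPM. At A6m Kel was listed at 0 in 2 libraries and was at 0.313 TPM in replicate 3, above every P0 and P14 library. Xk, the membrane protein that Kel is linked to by a disulfide bond, fell less, from 10.99 TPM ± 1.30 to 1.04 TPM ± 0.127 (log2 difference -2.55, adjusted p = 3.18e-08).

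Ermap (4:119175457-119190011, minus strand), an immunoglobulin-family protein that carries the Scianna blood group, was the most even member at E12.5 after Alas2, at 21.6, 22.5 and 23.1 TPM. The P0 libraries were at 0.516, 0.703 and 0.993 TPM, a fall of 30.4-fold (log2 difference -3.76, SE 0.15, limma adjusted p = 1.09e-08). The P14 libraries were all below P0, with a 1.79-fold lower mean that did not pass the test (adjusted p = 0.112), and those of A6m overlapped P14. Ermap measured 0.464, 0.426 and 0.349 TPM at P14 and 0.726, 0.234 and 0.307 TPM at A6m, so that mean Ermap was 0.413 TPM ± 0.0584 (SD, n = 3) and 0.422 TPM ± 0.265.

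**Figure D3:**
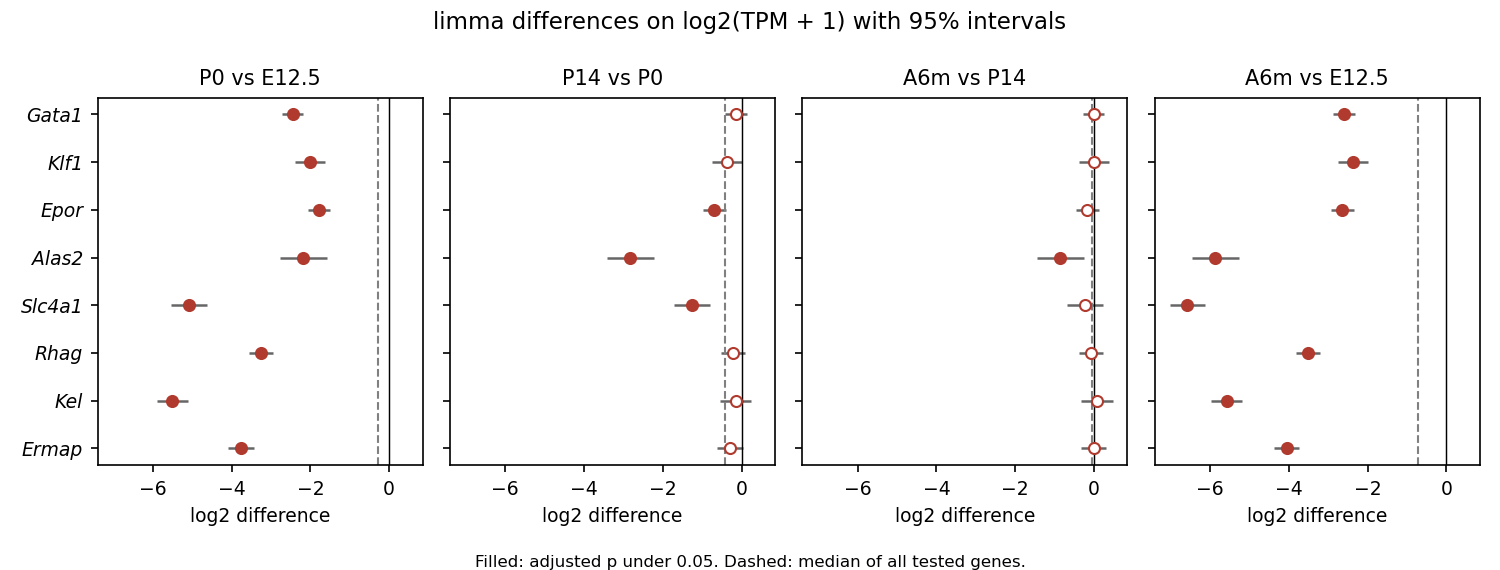
limma differences on log2(TPM + 1) for the 8 members in 4 comparisons, with 95% intervals; filled points have an adjusted p under 0.05 and dashed lines are the median of all tested genes. All 8 points are filled in the comparisons of P0 and of A6m with E12.5, 3 are filled between P0 and P14, and Alas2 alone between P14 and A6m.

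After birth the losses were unequal. From P0 to P14, 3 of 8 members were called lower (Alas2, Slc4a1 and Epor), beside 53.5% of all tested genes, and the median log2 difference was -0.32 for the members and -0.41 for all genes. With scaling, which moved the median of all genes to 0.00, the same 3 passed, while 19.8% of all genes were called lower. The libraries of P14 lay below all P0 libraries in 7 of 8 members, against 62.1% of all genes. The 5 members not called were at or below 0.993 TPM in each P0 library, where log2(TPM + 1) leaves little room for a difference. Klf1, for example, had a 4.94-fold lower mean at P14 and a log2 difference of -0.36 (adjusted p = 0.0953, 95% interval -0.74 to 0.02), and it passed with a pseudocount of 0.1 (adjusted p = 0.00782). From P14 to A6m, 1 of 8 members passed, Alas2, beside 12.1% of all genes called lower, and in 2 of 8, Alas2 and Epor, the libraries did not overlap (25.9% of all genes).

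Between the extremes of E12.5 and A6m all 8 members were called lower, as were 62% of all tested genes. The log2 differences ran from -2.37 for Klf1 to -6.58 for Slc4a1, with a median of -3.79 against -0.71 for all genes. Because log2(TPM + 1) compresses levels under 1 TPM, their order partly follows the E12.5 levels. Klf1 and Ermap (log2 difference -4.06), for example, had folds of 63.3 and 53.0 between means. Slc4a1 was 960-fold lower and Alas2 121-fold lower between means. The A6m mean of Slc4a1 rests on replicate 3, without which the fold was 3297. Over the 4 ages all 8 members also passed the moderated F-test of limma, which 85.1% of all tested genes passed.

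The order of the 8 levels changed with age. At E12.5 Slc4a1 and Alas2 led and overlapped, followed without overlap by Kel, Ermap and Rhag, and then by Epor, Gata1 and Klf1, which overlapped one another. At P0 Alas2 was first and Slc4a1 a clear second, Epor and Ermap overlapped next, and Klf1, Rhag, Kel and Gata1 followed with overlap between neighbours. Kel thus went from the third place to the seventh. At P14 only Alas2 stood above its neighbour, and at A6m every pair of neighbours overlapped, with Alas2 and Ermap on top.

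Single libraries at 2 ages stood apart in several members. P0 replicate 3 was the lowest of its age in Alas2, Slc4a1, Epor and Klf1, and its summed globin level was 6637 TPM against 10362 and 13466 TPM in replicates 1 and 2. Kel, Ermap and Gata1 were highest in that same library. At A6m replicate 3 was the highest in 6 of 8 members and replicate 2 the lowest in 6. Replicate 3 also held 85.8 TPM of embryonic globins, against 8.44 and 4.78 TPM in replicates 1 and 2. Leaving out either library left 8 of 8 members called lower at P0 and 8 of 8 at A6m against E12.5.

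To set the members against red cell content as the globin transcripts show it, each was divided by the summed TPM of 7 globin genes in the same library. That sum fell from 60042 TPM ± 3923 at E12.5 to 10155 TPM ± 3419 on the day of birth, and was 844 TPM ± 65.6 at P14 and 347 TPM ± 208 at 6 months (SD, n = 3). From E12.5 to P0 the ratio was lower without overlap in 6 of 8 members, was higher in Alas2 and overlapped in Epor. Over all genes with a ratio, 1.4% were lower and 90.7% higher without overlap, the base itself having dropped between these ages. With 3 against 3 libraries the exact two-sided permutation test cannot go below p = 0.10, which each of the 7 members without overlap reached and which stays 0.10 or more under any adjustment over the members.

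The ratio of Alas2 was 1.60, 1.91 and 1.67 TPM per 1000 globin TPM at E12.5, 2.27, 2.30 and 2.19 at P0 and 2.73, 2.39 and 2.88 at P14. Its geometric mean thus moved by 1.31-fold between E12.5 and P0, beside the 4.49-fold fall of Alas2 itself. Epor gave 0.0924, 0.0940 and 0.0949 per 1000 at E12.5 and 0.103, 0.0817 and 0.0939 at P0, with a log2 ratio difference of -0.02 (exact permutation p = 0.8). Slc4a1 went from 1.66, 1.96 and 1.61 to 0.246, 0.221 and 0.166 per 1000, 8.36-fold lower by geometric mean. The ratio of Kel was 58.4-fold lower, going from 0.612, 1.12 and 0.916 to 0.0102, 0.00866 and 0.0358. Gata1, Rhag, Ermap and Klf1 had ratios 7.10-, 6.96-, 5.11- and 1.95-fold lower at P0.

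The base matters for Alas2, because most E12.5 globin is embryonic. Hbb-y alone, the embryonic epsilon-type chain, was at 24778 TPM ± 4462 at E12.5 and 6.97 TPM ± 0.855 at P0. The adult chain Hbb-bs rose from 1415 TPM ± 428 to 4382 TPM ± 1344 (limma adjusted p = 0.00297), but the other adult chains fell. The sum of the 4 adult globins went from 24291 TPM ± 3440 at E12.5 to 10145 TPM ± 3418 at P0. Against the 4 adult globins only, Alas2 was lower at P0 by 0.93 on the log2 scale instead of higher by 0.39, and the other 7 members were lower too. The share of all genes was not computed for that base. From P0 to P14 the globin ratio was higher without overlap in Alas2, Slc4a1, Epor, Rhag and Ermap, overlapped in Kel and Klf1, and was not computed for Gata1, which was listed at 0 in a P14 library. Of all genes, 97% were higher in that comparison. No ratio is compared at A6m, where Kel, Gata1 and Rhag had libraries at 0.

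**Figure D4:**
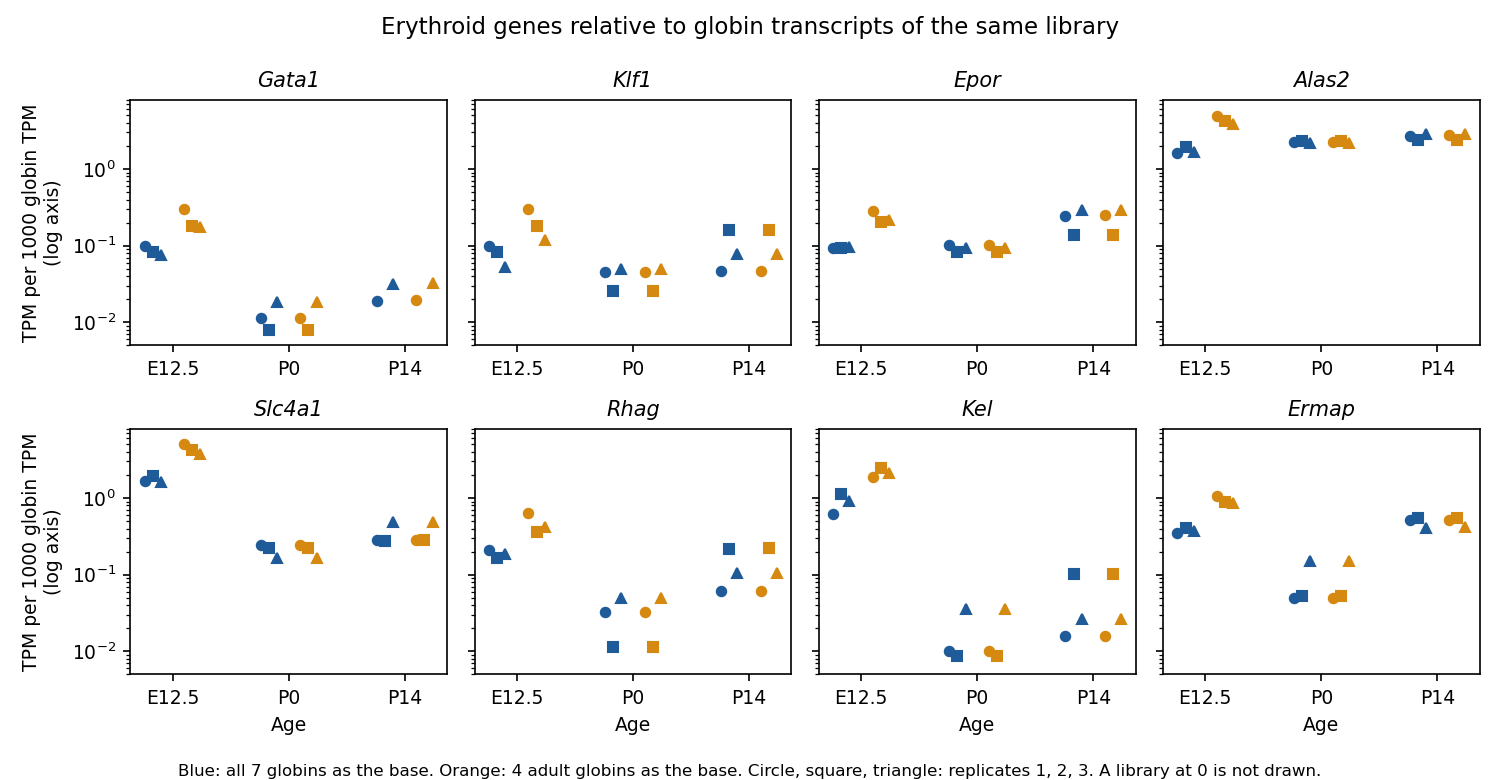
TPM of each member per 1000 TPM of globin in the same library at E12.5, P0 and P14 on a log axis; blue uses all 7 globins as the base, orange the 4 adult ones, and symbols are replicates. Alas2 sits between 1.60 and 2.88 in blue at all 3 ages, while Kel and Slc4a1 drop between E12.5 and P0.

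The remaining heme pathway was measured through 13 genes. Between E12.5 and P0, 11 of 13 were called lower and 0 higher (median log2 difference -0.70), beside 43.7% and 18.6% of all tested genes. With scaling 8 were lower and 1 higher, beside 31% and 29%. Slc25a37, or mitoferrin 1, which brings iron into erythroid mitochondria, fell most, from 69.5, 73.5 and 70.7 TPM to 7.11, 8.18 and 6.29 TPM (log2 difference -3.15, limma adjusted p = 4.01e-09). Abcb10, an inner-membrane transporter that stabilises mitoferrin, fell from 12.9 TPM ± 1.21 to 2.90 TPM ± 0.291. Alad, the second enzyme, was at 35.1 TPM ± 2.53 and 36.9 TPM ± 1.25 and did not pass (adjusted p = 0.467). From P0 to P14, 6 of 13 were lower and 2 higher as deposited, beside 53.5% and 5.33% of all tested genes. With scaling 0 were lower and 4 higher, beside 19.8% and 22.7%, so the direction of the list at that step depends on the scale.

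Alas1, the housekeeping counterpart of Alas2, ran opposite after birth. It was at 40.5, 54.8 and 48.0 TPM at E12.5 and 35.1, 30.3 and 34.3 TPM at P0 (log2 difference -0.50, limma adjusted p = 0.00173). It then rose to 105, 90.6 and 91.9 TPM at P14 (2.89-fold, adjusted p = 2.95e-06) and stood at 106, 97.8 and 105 TPM at A6m. The share of Alas2 in the summed TPM of both genes was 68.5% ± 2.65 in E12.5 tissue, 40.2% ± 10.4 on the day of birth, 2.30% ± 0.294 in P14 and 0.807% ± 0.525 in A6m tissue (SD, n = 3). No library overlapped between successive ages.

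**Figure D5:**
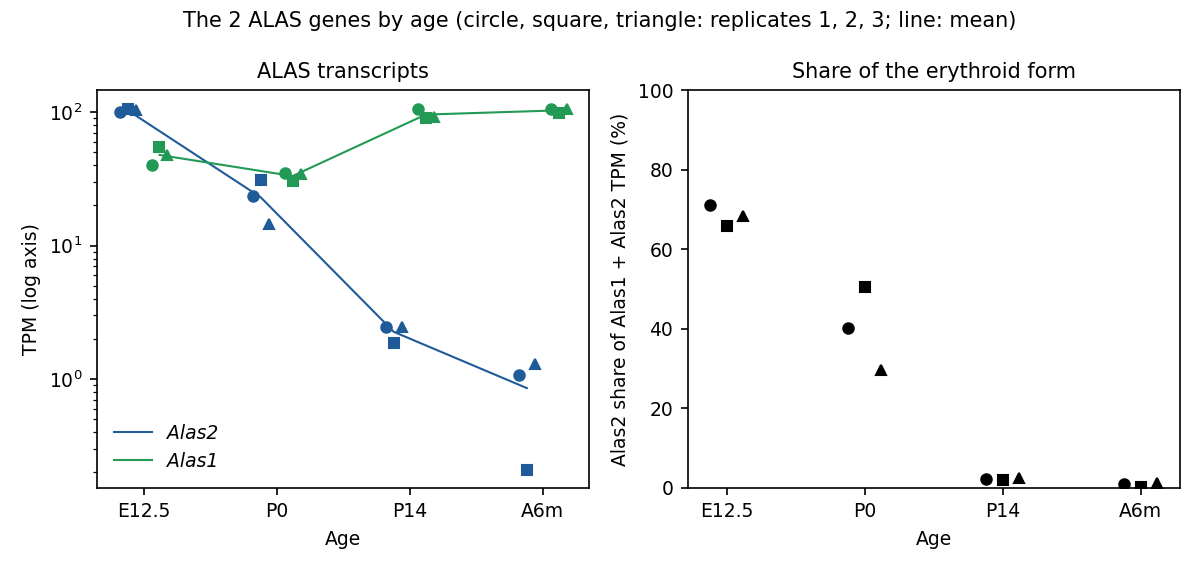
Left, TPM of Alas2 and Alas1 by age on a log axis, with lines through the means; right, the share of Alas2 in the sum of both, in percent. Alas2 is above Alas1 in the 3 E12.5 libraries and, narrowly, in P0 replicate 2 (a share of 50.6%). The share is 2.59% or less in all P14 and A6m libraries.

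Other proteins of the red cell membrane and its skeleton split by gene. Of 20 tested, 14 were lower and 4 higher at P0 than at E12.5 with a median log2 difference of -1.52, beside 43.7% and 18.6% of all tested genes. With scaling 11 were lower and 5 higher, beside 31% and 29%. Epb42, which ties band 3 to ankyrin, fell from 29.1 TPM ± 1.07 to 0.505 TPM ± 0.106, and the Rh antigen gene Rhd from 13.5 TPM ± 3.14 to 0.306 TPM ± 0.125. On the log2 scale these differences (-4.32 and -3.45) lie between those of Rhag and Slc4a1. The 4 that rose, Aqp1, Bcam, Tspan33 and Cd47, are also made by other cells. Aqp1, a water channel of choroid plexus epithelium, went from 189 TPM ± 91.8 to 654 TPM ± 8.10. Sptb, the beta-spectrin, did not pass (14.3 TPM ± 0.363 and 12.7 TPM ± 0.642, adjusted p = 0.167).

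Erythroid regulators and maturation genes other than the members were lower in 17 of 18 tested and higher in 1, Car2, a carbonic anhydrase that epithelium also makes, beside 43.7% and 18.6% of all tested genes. Trim10 fell from 18.6 TPM ± 1.38 to 0.559 TPM ± 0.289, and Nfe2, a factor shared with megakaryocytes, from 18.7 TPM ± 4.23 to 0.334 TPM ± 0.0474. Hemgn, with the widest spread among the named ones, was at 23.2 TPM ± 12.2 at E12.5 and 0.248 TPM ± 0.210 at P0. From P0 to P14 10 of the 18 were lower, near the 53.5% of all tested genes, and Tfrc, the transferrin receptor, was higher (limma adjusted p = 0.00628). With scaling 5 were lower and 2 higher, beside 19.8% and 22.7% of all genes. The symbol Ahsp was not matched in the table.

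Genes that act downstream of Epor were called about as often as genes in general. Of 13 tested genes of that list, 6 were lower and 2 higher at P0, beside 43.7% and 18.6% of all tested genes. Their median log2 difference was -0.26, against -0.27 over all genes, and with scaling 4 were lower and 4 higher with a median of 0.01. Jak2, the kinase bound to Epor, was at 19.9, 21.6 and 22.4 TPM at E12.5 and 16.9, 19.9 and 16.3 TPM at P0 (log2 difference -0.26, limma adjusted p = 0.0236, and 0.878 with scaling). Pim1 and Lyn fell, by 1.34 and 1.19 on the log2 scale. Cish, a feedback inhibitor that Stat5 induces, rose from 2.52, 3.10 and 2.92 TPM to 8.21, 5.70 and 6.11 TPM (adjusted p = 0.000260). Many of these genes serve other cytokine receptors too. The hormone gene Epo was at or below 0.135 TPM in all 12 libraries and was not tested.

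Markers of other cells that a dissected choroid plexus can hold moved over the same interval, in which 43.7% of all tested genes were called lower and 18.6% higher. Megakaryocyte and platelet markers, a lineage that also uses Gata1, were lower at P0 in 10 of 10 (median log2 difference -2.27), and their summed level went from 252 to 360 TPM at E12.5 to 30.1 to 38.4 TPM at P0. Ppbp, a platelet chemokine, fell from 80.3 TPM ± 15.8 to 1.67 TPM ± 0.496. Endothelial markers were lower in 11 of 12, with summed levels of 493 to 537 TPM and 254 to 347 TPM. Macrophage markers were lower in 6 of 10, near the share of all genes (175 to 224 TPM and 113 to 136 TPM). Haematopoietic progenitor markers were lower in 5 of 6 with Kit higher (174 to 199 TPM and 109 to 128 TPM). The largest means in the progenitor sum were Cd34 at E12.5 (93.4 TPM) and Kit and Cd34 at P0 (47.7 and 43.3 TPM). Mast cells express Gata1 as well, and of their 6 tested markers 4 were higher and 2 lower at P0. Their summed levels were 60.1 to 90.5 TPM at E12.5 and 88.7 to 97.5 TPM at P0. At E12.5 Hdc, Kit and Gata2 held most of that sum, with means of 45.1, 22.0 and 8.21 TPM, and Kit is also among the progenitor markers. Cpa3, the next in level at that age, had means of 0.662 TPM there and 4.39 TPM at P0. Of the 10 mast cell markers, 3 were at 0 in all E12.5 libraries, Mcpt4 and Tpsab1 among them. Neutrophil markers, 3 of 4 tested, and choroid plexus epithelium markers, 10 of 11, were higher at P0, the latter with summed levels of 12868 to 23757 TPM at E12.5 and 148712 to 150380 TPM at P0. Ttr of the epithelium, which encodes transthyretin, took 1.12% to 2.10% of all TPM at E12.5 and 14.1% to 14.3% at P0, so the defining marker of the labelled tissue was present at both ages. The part of these changes in the falls of the 8 members was not tested.

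The genes most like each member were found as those with the smallest root-mean-square difference between centred log2(TPM + 1) profiles over the 12 libraries, among 13822 tested genes. The measure depends on the size of the step at P0 as well as its shape. Rhag was close to Wnt3a (0.13) and the platelet gene Gp9 (0.16), and Ermap to Tubb1 (0.17), Nfe2 (0.21) and Fgf15 (0.21). Slc4a1 lay nearest Slitrk6 (0.29), Ppbp (0.29) and Hmga2 (0.37). For Kel the nearest were Dkk2 (0.32), Hsd3b6 (0.33) and Hmga2 (0.38), and for Alas2 they were Igf2bp3 (0.37), F13a1 (0.41) and Marcksl1 (0.42). Gata1 was closest to Lin28b (0.11), Dusp9 (0.14) and Ngef (0.14), Klf1 to Dusp9 (0.14), Slit1 (0.14) and Mtfr2 (0.15), and Epor to Syk (0.098), Arhgap45 (0.11) and Fen1 (0.11).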

How the data were processed

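RNA of whole choroid plexus was sequenced as paired ends after a Kapa mRNA HyperPrep preparation, per the labels' protocols. The deposited values are TPM, which the authors computed with kallisto on GRCm38, per the submitters' processing notes. The version of kallisto, the annotation and how transcripts were joined into genes are not given in the sources used here. TPM keeps no read counts, so depth is unknown and no counting interval was given. Of the table, 7 further columns were not used.

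Genes with at least 1 TPM in at least 3 of 12 libraries (17422) were fitted as log2(TPM + 1) with limma 3.58.1 in R 4.3.3 (4 age means, 8 residual degrees of freedom, eBayes with trend), and p was Benjamini-Hochberg adjusted over all of them. The fit was tested on simulated data. Ratios were compared with exact permutation tests in SciPy 1.17.1. P-values measure the spread between these libraries, 3 per age. Alternatives were median-of-ratios scaling over 19075 genes, pseudocounts of 0.1 and 5, a filter at a mean of 5 TPM, all genes unfiltered, the 6 libraries of a comparison only, a replicate block, eBayes without trend, each library left out, and other bases of the ratio.

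The members, lists and tests were chosen with earlier results of these data known. Named genes were the 8 members, up to 3 called genes per list with the largest difference between P0 and E12.5 and at least 5 TPM in the higher age, Alas1, Xk, Ahsp and Epo, and the 3 genes most like each member; some of these are not reported here. Jak2, Apex2, Xist, Ddx3y, Alad, Sptb, Aqp1, Bcam, Tspan33, Cd47, Car2, Tfrc, Hbb-bs, Cd34, Cpa3, Mcpt4 and Tpsab1 were added after their values were seen.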

Additional observations from a re-analysis of the deposited data

How the results depend on the processing

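All 8 members stayed called lower at P0 and at A6m against E12.5 under every alternative that kept them, including each library left out. In the main fit 43.7% and 62% of all tested genes were called lower in these comparisons. Kel, Klf1, Gata1, Rhag and Ermap passed the filter through E12.5 alone, so their calls partly follow from the filter. A mean of at least 5 TPM kept 4 of the 8 members, so 4 were called in both comparisons and over the 4 ages. Between P14 and A6m, 0 members were called with a pseudocount of 5, no filter, the 6 libraries only, the replicate block or eBayes without trend, and 0 to 1 with a library left out; the range for Alas2 is given above. Replicate numbers did not pair the libraries (correlations of same-numbered deviations from -0.06 to 0.07), and the replicate block changed no other member's call: Kel at P0, for example, kept a log2 difference of -5.51 (limma adjusted p = 1.32e-07), and Alas2 between P14 and A6m had an adjusted p of 0.0766. Klf1 from P0 to P14 passed with a pseudocount of 0.1, with 6 libraries, and without E12.5 replicate 1 or 3. Between P14 and A6m the near-zero differences turned positive for Ermap with a pseudocount of 5 (0.0014) and with scaling (0.0034), and with single libraries left out they ran from -0.15 to 0.089 for Ermap, from -0.047 to 0.026 for Klf1 and from -0.054 to 0.14 for Kel. With scaling the list medians turned to 0.014 for Epo receptor signalling at P0 and 0.19 for heme genes at P14. The cause was not tested.

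The ratios depended on the base. The share of all genes was not computed for the bases in this paragraph, so the counts on them cannot be set against genes in general. At P0 against E12.5, 0 members were higher with adult globins (Alas2 -0.93) or with a summed level of membrane skeleton genes, and 2 with that sum without Sptb, a base added after seeing the data (Alas2 2.08, Epor 1.68). On that last base Klf1 also turned positive (0.73), with overlapping libraries. At P14 against P0, 6 members were lower and 0 higher against the skeleton sum (Alas2 -3.28, Slc4a1 -2.82, Klf1 -2.41, Epor -2.30, Kel -2.27, Ermap -0.78), where Rhag turned negative with overlap (-1.44), and 3 lower and 0 higher without Sptb (Alas2 -1.78, Slc4a1 -1.33, Epor -0.81). Sptb made up 13.1% to 16.0% of the skeleton sum at E12.5, 69.1% to 80.4% at P0 and 89.7% to 92.4% at P14. Depth is unknown, so levels under 1 TPM carry an error that was not estimated.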
